A study of Mus musculus with 27 samples.

Results

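Lysosome and autophagy genes were followed in mouse kidneys over 9 ischemia times. The set holds 40 genes, chosen as a list of gene symbols and found by symbol in the deposited table, which lists 19392 genes. It has 28 lysosomal genes (10 proteases, 9 glycosidases, 4 genes for lipid and cholesterol handling and 5 membrane proteins) and 12 autophagy factors. All 40 were among the 18188 genes tested. The kidneys came from C57BL/6 mice in which the right kidney was excised and the left renal pedicle was clamped for 0 min (sham), 16, 18, 20, 22, 24, 26, 28 or 30 min on a platform held at 37°C, and the left kidney was taken after 24 h of reperfusion. The protocol in the labels describes the removal of the right kidney for all groups together. The sources do not state it separately for sham. Each time had 3 mice, 27 kidneys in all, and sex and age are not given in the sources used here.

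A lysosome is an acidic organelle in which hydrolases break down proteins, glycans and lipids, and its membrane proteins keep the acid and the enzymes apart from the cytosol. Autophagy delivers cytoplasm and damaged organelles to it in a double-membraned autophagosome, built by the ULK1 and Beclin 1 complexes and coated with lipid-bound proteins of the LC3 and GABARAP family. The transcription factor TFEB binds E-box letters near the start of many lysosomal and autophagy genes. Proximal tubule cells take up filtered protein by endocytosis and have many lysosomes.

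The values are FPKM, fragments scaled by transcript length and by the total of mapped fragments, so levels can be compared between genes per length. FPKM totals per kidney ran from 512453 to 554036, and 16498 to 16904 genes were above 0. The number of reads is unknown. The depth relative to the median kidney was estimated at 0.955 to 1.05, from 25 to 47 low genes per kidney. In each gene, only kidneys near its lowest value above 0 were used and taken to hold a single fragment. A kidney of much lower depth would be left out of such genes, so the estimate cannot exclude wider differences in depth. The 10 proximal tubule markers were present in every kidney and summed to 4725 to 5207 FPKM in sham, while the 6 T and B cell markers summed to 1.28 to 3.54 FPKM there. Replicate 3 of the 16 min group and replicate 3 of the 30 min group stood apart from their group mates in marker levels. In the former the 5 tubular injury genes summed to 70.7 FPKM, within the 15.8 to 90.1 FPKM of sham, against 729 and 1023 FPKM in the other 2 kidneys at 16 min. In the latter the 8 markers of the loop of Henle, distal tubule and collecting duct summed to 2919 FPKM, against 834.5 and 867.6 FPKM in the other 2 kidneys at 30 min. Whole kidneys were measured, so fewer cells of a type and less RNA per cell cannot be told apart.

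In sham the 40 genes spanned from Psap at 1011 ± 63.1 FPKM (mean ± SD, n = 3, as for all such values) to Gla at 2.68 ± 0.393 FPKM. Psap encodes prosaposin, the precursor of the sphingolipid activator proteins, and Gla encodes alpha-galactosidase A. Cd63 followed at 978 ± 66.3 FPKM, and its kidneys overlapped those of Psap. Lamp1, Lgmn, Ctsb, Lamp2, Gabarapl1 and Gabarap came next, between 625 ± 27.03 and 399 ± 10.7 FPKM, and each of these overlapped its neighbour in the order. Of the autophagy factors, only Gabarapl1, Gabarap and Sqstm1 lay above 100 FPKM in sham.

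At 30 min of ischemia against sham, 29 of the 40 genes passed an adjusted p of 0.05 (limma, Benjamini-Hochberg over all genes tested), 11 higher and 18 lower. Across all genes tested, 52.3% passed in this comparison, 26.9% higher and 25.4% lower. A differentially expressed gene (DEG) also had to change by more than 2-fold in the normalized values. Only 4 of the 40 did, against 10.7% of all genes tested. These were Ctsd, which was higher, and Glb1, Man2b1 and Gabarapl1, which were lower. In the deposited FPKM, 14 of the 40 lay above and 16 below sham in all kidneys without overlap, against 54.5% of all genes tested. The median log2 fold change was -0.18 over the 40 genes and 0.00077 over all genes tested, and without quantile normalization it was -0.08 and 0.04. All fold changes are differences of quantile-normalized log2(FPKM + 1) values, which understates the change of low genes.

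At 28 min against sham 26 of the 40 passed, 9 higher and 17 lower, against 48.2% of all genes tested (24.5% higher and 23.6% lower). Ctsd and Gabarapl1 were the 2 DEGs, against 8.48% of all genes tested. On the scale without quantile normalization the split at 28 min was 13 higher and 15 lower, and it was 12 and 15 with FPKM rescaled to a constant sum. At 28 min the 40 had a median of -0.15, and of 0.0016 without quantile normalization. At the shorter times of 16, 18, 20, 22, 24 and 26 min, 7, 10, 10, 15, 13 and 14 of the 40 passed, where 19%, 27.8%, 22.8%, 28.8%, 28.3% and 30.1% of all genes tested did. All these comparisons share the 3 sham kidneys. Without replicate 3 of 16 min, an alternative chosen after seeing the data, 9 of the 40 passed at 16 min in place of 7, and 5172 in place of 3463 of all genes tested. Gaa, Man2b1, Lamp2, Map1lc3b and Gabarapl1 were lower and Tfeb was higher at all 8 times, as were 5.78% and 5.38% of all genes tested. Of the 40, 9 passed at none of the 8 times, against 32.6% of all genes tested.

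**Figure D1:**
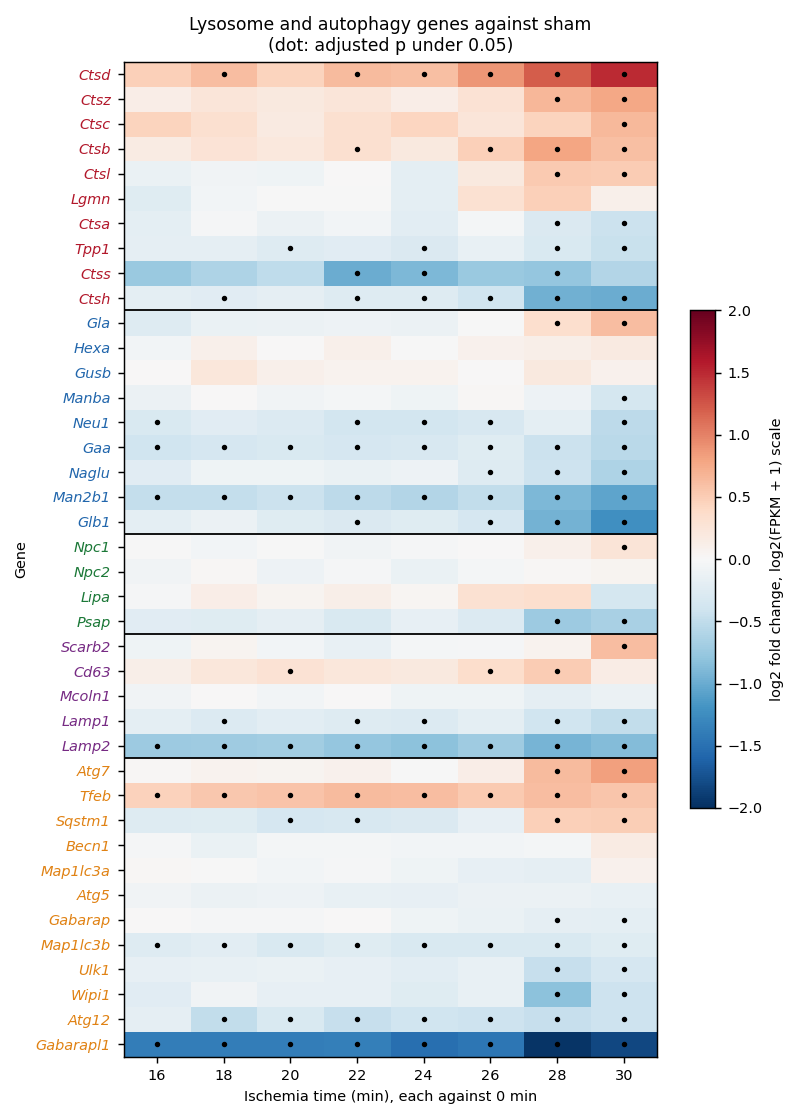
Log2 fold change of the 40 genes (rows, grouped by class and coloured by it) at each ischemia time in min against the 3 sham kidneys, with red for higher, blue for lower and a dot where the adjusted p was under 0.05. Gabarapl1 is the darkest blue row at every time, and Ctsd reaches 1.50 at 30 min.

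RefSeq promoters (GRCm38.p6, from 250 bases before to 50 bases after each start in the table) were searched for the E-box CACGTG, which reads the same on both strands, and for its longer form TCACGTG on either strand, which contains the former. Of the 40 genes, 34 had a promoter in the table. CACGTG was present in 12 of these 34 (35.3%), and in 10.1% of the genes tested that had a promoter. TCACGTG was present in 10 of the 34 (29.4%), against 5.80% of the genes tested. Among the lysosomal genes 10 of 25 held CACGTG, and among the autophagy factors 2 of 9 did. The following windows are shown because genes that were higher and genes that were lower at 30 min held the same letters. Capitals mark CACGTG, and each window reads 5′ to 3′ on the gene's strand.
Ctsd (higher), chr7:142387908-142387937, minus strand: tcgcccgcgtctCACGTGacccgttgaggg
Gla (higher), chrX:134601182-134601211, minus strand: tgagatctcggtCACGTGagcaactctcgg
Atg7 (higher), chr6:114670952-114670981, plus strand: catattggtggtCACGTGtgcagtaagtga
Glb1 (lower), chr9:114401018-114401047, plus strand: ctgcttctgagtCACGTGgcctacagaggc
Gaa (lower), chr11:119267811-119267840, plus strand: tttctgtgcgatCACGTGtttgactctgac
Naglu (lower), chr11:101070009-101070038, plus strand: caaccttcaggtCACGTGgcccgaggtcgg
Lamp1 (lower), chr8:13159088-13159117, plus strand: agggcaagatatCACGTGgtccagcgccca
Mcoln1 (not passed), chr8:3500462-3500491, plus strand: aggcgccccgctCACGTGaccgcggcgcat
The Atg7 window belongs to a start that lies 27969 bases inside the annotated gene, and the table held no other start for Atg7. Of the 34 genes, 9 had their first start inside the annotated gene, 2 of them by over 1000 bases. The Lamp1 promoter held 4 such cores and those of Ctsa, Ctsd, Gla and Mcoln1 held 2 each. In Ctsa and Lgmn the letters were only at a further start, 901 and 636 bases inside the gene, and not at the annotated start. Gabarapl1, Lamp2, Man2b1, Sqstm1 and Tfeb had none in this window, which says only that these letters are not in it. Man2b1 was searched only at a start 539 bases inside the gene. A match is a description and not a measured site of binding.

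Among the 10 proteases, 5 were higher and 3 lower at 30 min against sham (26.9% and 25.4% of all genes tested). Their median log2 fold change was 0.30. Ctsd encodes cathepsin D, the main aspartic protease of the lysosome. Ctsd stood at 307, 322 and 356 FPKM in the 3 sham kidneys. The 18 kidneys clamped for 16 to 26 min held 339 to 759.6 FPKM with a median of 529. Values were 890.5, 869.5 and 826 FPKM at 28 min and 927, 921 and 1253 FPKM at 30 min. All 6 kidneys at 28 and 30 min thus lay above the other 21. The log2 fold change against sham was 1.21 ± 0.18 (± SE, as for all fold changes) at 28 min (adjusted p = 1.4e-05) and 1.50 ± 0.18 at 30 min (adjusted p = 7.38e-07). The step from 26 to 28 min alone did not pass for Ctsd (0.33 ± 0.18, adjusted p = 0.221). The mean of 16 to 26 min was above sham by 0.61 ± 0.14 (adjusted p = 0.00155). Of these times taken singly, 18, 22, 24 and 26 min passed, while 16 min (0.47 ± 0.18, adjusted p = 0.0738) and 20 min (0.45 ± 0.18, adjusted p = 0.0758) did not. The lowest of the 18 kidneys was replicate 3 of 16 min, and without it 16 min passed (0.68 ± 0.18, adjusted p = 0.00649).

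Ctsh, the gene of cathepsin H, an aminopeptidase, moved the other way. It measured 140.3, 137 and 132 FPKM in sham and 100.4, 105 and 101 FPKM at 26 min. At 28 min it measured 64.8, 70.7 and 75.7 FPKM and at 30 min 69.3, 60.97 and 68.8 FPKM, below every kidney of the other times. The change from 26 to 28 min was -0.56 ± 0.07 (adjusted p = 3.95e-05), and that from 28 to 30 min was -0.03 ± 0.07 (adjusted p = 0.882). Within a kidney, the log2 ratio of Ctsd to Ctsh was 1.27 ± 0.15 in sham, 2.61 ± 0.28 at 26 min and 3.95 ± 0.22 at 30 min.

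Ctsz, the gene of the carboxypeptidase cathepsin Z, was 122, 121 and 124 FPKM at 26 min and 149.8, 136 and 179.96 FPKM at 28 min. These groups did not overlap, and the difference was 0.39 ± 0.12 (adjusted p = 0.0293). That call was lost without quantile normalization, and its adjusted p reached 0.154 over the alternatives. Sham kidneys had 89.6, 100.3 and 111 FPKM and 30 min kidneys 179, 157 and 139.9 FPKM of Ctsz, a log2 fold change of 0.77 ± 0.12 (adjusted p = 1.88e-05).

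The endopeptidases Ctsb and Ctsl were higher at 30 min too, by 0.60 ± 0.12 and 0.51 ± 0.13 (adjusted p = 0.000267 and 0.00226). Ctsb went from 477 ± 48.3 FPKM in sham to 962 ± 71.2 FPKM at 28 min and 868 ± 186 FPKM at 30 min. Ctsl had 286 ± 40.4 FPKM in sham, 324 ± 26.3 FPKM at 26 min and 418 ± 19.8 FPKM at 28 min. Ctsa, which protects beta-galactosidase and neuraminidase in a complex, and Tpp1, a tripeptidyl peptidase, were lower at 30 min (-0.43 ± 0.09 and -0.44 ± 0.09, adjusted p = 0.000255 and 0.000247). Lgmn, the gene of the asparaginyl endopeptidase legumain, passed at none of the 8 times, with 517 ± 134 FPKM in sham and 845 ± 53.3 FPKM at 28 min (adjusted p = 0.0683).

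Ctsc and Ctss, which leukocytes also express, were the proteases with the widest spread relative to their mean at 30 min. Ctsc read 7.62, 6.49 and 20.8 FPKM and Ctss 7.36, 5.79 and 15.8 FPKM in the 3 kidneys, so that 1 kidney stood high for both. The 12 macrophage and monocyte markers summed to 165 FPKM in that kidney and to 86.9 to 165 FPKM over the 3 kidneys, against 85.3 to 96.9 FPKM in sham. It is the kidney with the high loop, distal and collecting duct markers, and in it the tubular injury genes summed to 4918 FPKM (2518 and 3336 FPKM in the other 2) and the 5 endothelial markers to 230.4 FPKM (129.9 and 187 FPKM). The part of these markers in the values was not tested. Ctsc passed at 30 min (0.65 ± 0.27, adjusted p = 0.0494), but not without that kidney or any 1 of the sham kidneys, with no filter on low values, or with the replicate number as a block. Ctss was lower over 16 to 26 min (-0.75 ± 0.22, adjusted p = 0.0103), a call lost without replicate 2 or 3 of sham, and did not pass at 30 min (-0.59 ± 0.29, adjusted p = 0.097). Without that kidney 29 of the 40 genes passed at 30 min against sham.

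**Figure D2:**
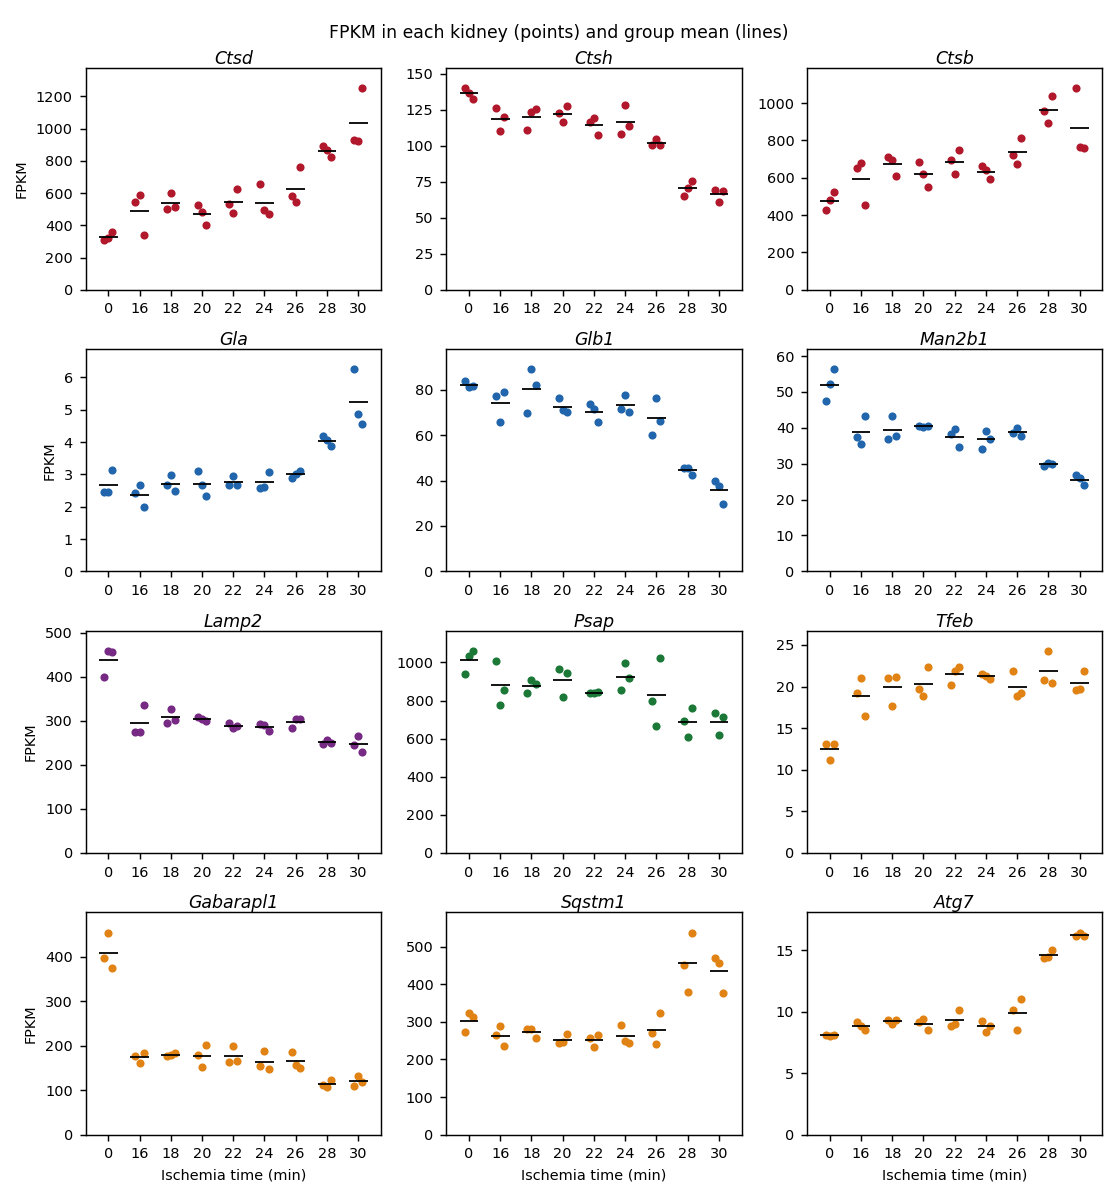
FPKM of 12 of the genes (linear axes from 0) in each of the 27 kidneys by ischemia time in min, with points for kidneys and lines for the mean of 3. Gabarapl1, Lamp2 and Tfeb step between 0 and 16 min, and Ctsh, Glb1, Sqstm1 and Atg7 step between 26 and 28 min.

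Among the 9 glycosidases, 1 was higher and 6 were lower at 30 min (26.9% and 25.4% of all genes tested). Their median log2 fold change was -0.53. Glb1 encodes beta-galactosidase, the enzyme whose activity serves as a marker of senescent cells. Sham kidneys held 83.8, 81.5 and 81.7 FPKM of Glb1. The 18 kidneys from 16 to 26 min held 59.9 to 89.05 FPKM with a median of 71.7. At 28 min Glb1 was 45.5, 45.7 and 42.5 FPKM and at 30 min 39.9, 37.8 and 29.6 FPKM. These 6 kidneys were the lowest of the 27, and the 3 at 30 min lay below the 3 at 28 min. The log2 fold change was -0.60 ± 0.11 from 26 to 28 min (adjusted p = 0.000747) and -1.22 ± 0.11 at 30 min against sham (adjusted p = 1.29e-08).

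Man2b1, the gene of lysosomal alpha-mannosidase, fell in 2 steps. Its sham kidneys read 47.5, 52.3 and 56.3 FPKM, and the 18 kidneys from 16 to 26 min read 34.1 to 43.3 FPKM with a median of 38.4, all below sham. At 28 min it read 29.3, 30.2 and 29.9 FPKM and at 30 min 26.8, 25.9 and 24.01 FPKM. The mean of 16 to 26 min was below sham by -0.50 ± 0.06 (adjusted p = 4.07e-06), and 28 min was below 26 min by -0.41 ± 0.08 (adjusted p = 0.00133), both as signed log2 differences. At 30 min the difference to sham was -1.06 ± 0.08 (adjusted p = 1.41e-09).

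Gla was the glycosidase that was higher. Its level was low, at 2.45, 2.45 and 3.13 FPKM in sham, 2.89, 3.01 and 3.12 FPKM at 26 min, 4.18, 4.06 and 3.87 FPKM at 28 min and 6.25, 4.87 and 4.56 FPKM at 30 min. It rose both from 26 to 28 min (0.34 ± 0.09, adjusted p = 0.014) and from 28 to 30 min (0.29 ± 0.09, adjusted p = 0.0467). The call from 28 to 30 min was lost when only the kidneys of these times were fitted. The log2 ratio of Gla to Glb1 within a kidney went from -4.95 ± 0.21 in sham to -2.78 ± 0.16 at 30 min. Both promoters hold the E-box shown above.

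The other glycosidases that fell were Gaa, Naglu, Neu1 and Manba. Gaa, the glycogen-degrading alpha-glucosidase, was at 35.6 ± 2.93 FPKM in sham and 25.5 ± 1.61 FPKM at 30 min (-0.54 ± 0.08, adjusted p = 1.13e-05). Naglu, which acts on heparan sulfate, was at 20.97 ± 0.931 and 14.3 ± 2.21 FPKM (-0.62 ± 0.10, adjusted p = 1.9e-05). Neu1, a sialidase, was lower over 16 to 26 min (-0.31 ± 0.08, adjusted p = 0.00348) and at 30 min (-0.53 ± 0.10, adjusted p = 0.000203), and between these it had 108 ± 15.9 FPKM at 28 min against 123 ± 5.13 FPKM in sham (adjusted p = 0.128). Manba, the beta-mannosidase gene, passed at 30 min (-0.36 ± 0.07, adjusted p = 0.000417). Gusb and Hexa passed at none of the 8 times. At 30 min the 95% interval of their log2 fold change was -0.09 to 0.26 for Gusb and -0.02 to 0.38 for Hexa.

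Of the 4 genes for lipid and cholesterol handling, 1 was higher and 1 lower at 30 min (26.9% and 25.4% of all genes tested). Psap had 940.1, 1034 and 1059.9 FPKM in sham, 798, 668 and 1025 FPKM at 26 min, 693, 610.02 and 761 FPKM at 28 min and 733, 618 and 714 FPKM at 30 min. The 26 min kidneys were spread over the range of both later groups and of sham. At 30 min Psap was below every sham kidney (-0.64 ± 0.12, adjusted p = 0.000194), and the step from 26 to 28 min (-0.44 ± 0.12, adjusted p = 0.0173) was lost without quantile normalization. Npc1, a cholesterol exporter of the lysosomal membrane, went from 5.67 ± 0.021 FPKM to 7.61 ± 0.438 FPKM (0.25 ± 0.06, adjusted p = 0.00163). Lipa, the gene of lysosomal acid lipase, differed between the 2 longest times, with 104, 129 and 137 FPKM at 28 min and 85.8, 78.8 and 61.5 FPKM at 30 min (-0.68 ± 0.17, adjusted p = 0.0123). That call was lost when only the kidneys of these times were fitted. Npc2, which hands cholesterol to NPC1, passed at none of the 8 times and had 31.9 ± 3.59 FPKM in sham and 34.6 ± 1.37 FPKM at 30 min.

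The 5 membrane proteins did not share a direction. Lamp2, the gene of a major membrane glycoprotein needed for autophagosome fusion and chaperone-mediated autophagy, measured 399.97, 458 and 455 FPKM in sham. The 18 kidneys from 16 to 26 min measured 273 to 335 FPKM with a median of 294, without overlap with sham. It was 248, 257 and 249.6 FPKM at 28 min and 244, 266 and 229.9 FPKM at 30 min. The drop from sham to 16 to 26 min was -0.74 ± 0.06 (adjusted p = 4.64e-08), and the difference between 28 and 26 min was -0.21 ± 0.08 and did not pass (adjusted p = 0.0618).

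Lamp1, the gene of the related glycoprotein, changed less. Sham kidneys had 594, 647 and 633 FPKM and the 16 to 26 min kidneys 553 to 619.95 FPKM with a median of 582. Lamp1 was 558, 527 and 562 FPKM at 28 min and 536, 484 and 435 FPKM at 30 min, all below sham (-0.50 ± 0.08 at 30 min, adjusted p = 3.14e-05). The lower value over 16 to 26 min (-0.24 ± 0.06, adjusted p = 0.00505) did not pass without quantile normalization. The log2 ratio of Lamp1 to Lamp2 in a kidney was 0.51 ± 0.05 in sham and 0.99 ± 0.14 at 16 min.

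Scarb2, the gene of the receptor that carries beta-glucocerebrosidase to the lysosome, was at 14.2, 12.5 and 12.5 FPKM at 28 min and at 16.1, 20.1 and 21.8 FPKM at 30 min, against 9.64, 12.4 and 11.5 FPKM in sham. Its rise came between 28 and 30 min (0.56 ± 0.11, adjusted p = 0.00286). Cd63, a tetraspanin of late endosomes and lysosomes, was 1298, 1338 and 1352 FPKM at 28 min and 1252, 1166 and 947 FPKM at 30 min. It was above sham at 28 min (0.52 ± 0.09, adjusted p = 7.74e-05) and was lower at 30 than at 28 min (-0.36 ± 0.09, adjusted p = 0.0115). Cd63 also passed as higher for the mean of 16 to 26 min against sham, while 28 and 30 min against 16 to 26 min did not pass. For Scarb2 and Cd63 the call from 28 to 30 min was lost when only the kidneys of these times were fitted. Mcoln1, the gene of a calcium channel of the lysosome, did not pass at any time and had a 95% interval of -0.30 to 0.07 for its log2 fold change at 30 min.

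Among the 12 autophagy factors, 3 were higher (Tfeb, Sqstm1 and Atg7) and 6 lower at 30 min, with a median log2 fold change of -0.18. Of all genes tested, 26.9% were higher and 25.4% lower. Tfeb was 13.04, 11.2 and 13.1 FPKM in sham. The 18 kidneys from 16 to 26 min held 16.4 to 22.4 FPKM with a median of 20.9, all above sham. It was 20.8, 24.3 and 20.4 FPKM at 28 min and 19.6, 19.7 and 21.9 FPKM at 30 min. The rise was present at the shorter times, with 0.56 ± 0.07 for 16 to 26 min against sham (adjusted p = 4.27e-06) and 0.03 ± 0.05 for 28 and 30 min against 16 to 26 min (adjusted p = 0.673). These are transcript levels, and where the TFEB protein was in the cell was not measured.

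Of the LC3 and GABARAP family, Gabarapl1 had the largest change of the 40 genes. Sham kidneys held 396, 454 and 373 FPKM. The 18 kidneys from 16 to 26 min held 148 to 201 FPKM with a median of 177. At 28 min it was 110.2, 108 and 123 FPKM and at 30 min 109, 132 and 118 FPKM. All 24 ischemic kidneys thus lay below the 3 sham kidneys, and the 6 at the longest times lay below the other 18. The log2 fold change was -1.41 ± 0.09 for 16 to 26 min against sham (adjusted p = 2.36e-09), and a further -0.52 ± 0.11 from 26 to 28 min (adjusted p = 0.0032). At 30 min the difference to sham was -1.81 ± 0.11 (adjusted p = 1.72e-10).

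The other family members stayed closer to sham. Map1lc3b, which encodes the LC3B protein used to count autophagosomes, was 71.03, 76.1 and 77.4 FPKM in sham, while the 16 to 26 min kidneys held 58.5 to 71.6 FPKM with a median of 64.1. Map1lc3b was 62.9, 64.3 and 63.8 FPKM at 28 min and 70.3, 62.3 and 59.6 FPKM at 30 min. It passed as lower at all 8 times, with -0.24 ± 0.06 at 30 min (adjusted p = 0.00334), although 1 kidney of the 30 min group was within 1 FPKM of the lowest sham kidney. Map1lc3a, the LC3A gene, was 81.95, 77.6 and 80.3 FPKM in sham, and the 16 to 26 min kidneys held 66.2 to 92.5 FPKM with a median of 80.9. It was 72.2, 74.98 and 74.5 FPKM at 28 min and 72.7, 94.7 and 87.4 FPKM at 30 min, and passed at no time. Gabarap passed as lower at 28 and 30 min (-0.17 ± 0.06 and -0.20 ± 0.06, adjusted p = 0.021 and 0.00919), but its FPKM were 399 ± 10.7 in sham, 396 ± 14.1 at 28 min and 371 ± 37.9 at 30 min, and neither call held without quantile normalization. In sham Gabarapl1 and Gabarap were at like levels, with a log2 ratio of 0.03 ± 0.18, and at 28 min the ratio was -1.81 ± 0.07. Reads shared by related copies could have been divided between them when genes were counted, which was not tested.

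Sqstm1 encodes p62, the receptor that links ubiquitinated cargo to LC3. It was 274, 323 and 314 FPKM in sham. The 16 to 26 min kidneys held 234 to 324 FPKM with a median of 261, and 26 min alone had 271, 240.4 and 324 FPKM. At 28 min it was 453, 379 and 538 FPKM and at 30 min 470.2, 458 and 378 FPKM. The 6 kidneys at these times lay above all kidneys of the shorter times and of sham, and the rise from 26 to 28 min was 0.64 ± 0.12 (adjusted p = 0.000819). The lower value over 16 to 26 min against sham (-0.27 ± 0.09, adjusted p = 0.0215) did not pass without quantile normalization, nor without either of 2 sham kidneys (replicates 2 and 3).

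Atg7, the gene of the E1-like enzyme that activates LC3 and ATG12, had its widest spread at 26 min. It was 8.08, 8.03 and 8.09 FPKM in sham and 10.1, 8.46 and 11.1 FPKM at 26 min, and the 16 to 26 min kidneys held 8.35 to 11.1 FPKM with a median of 9.09. At 28 min it was 14.3, 14.5 and 15.01 FPKM and at 30 min 16.2, 16.4 and 16.1 FPKM, above all shorter times. The rise from 26 to 28 min was 0.51 ± 0.06 (adjusted p = 3.23e-05), and 30 min differed from sham by 0.82 ± 0.06 (adjusted p = 1.68e-09). Atg12, whose product ATG7 activates, was lower, from 23.5 ± 1.77 FPKM in sham to 18.7 ± 0.113 FPKM at 30 min (-0.41 ± 0.08, adjusted p = 0.000193). Atg12 passed as lower at 7 of the 8 times, and was at 17.55 ± 1.52 FPKM at 18 min. Its difference between 28 and 30 min and 16 to 26 min did not pass. Atg5, the partner of ATG12, passed at no time and had 17.2 ± 0.436 and 16.6 ± 1.83 FPKM.

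Wipi1, the gene of a protein that reads phosphatidylinositol 3-phosphate on the growing membrane, had its lowest values at 28 min. It measured 15.5, 14.3 and 11.7 FPKM in sham and 15.9, 12.1 and 12.98 FPKM at 26 min. It measured 7.5, 8.68 and 8.45 FPKM at 28 min and 9.19, 10.98 and 13.2 FPKM at 30 min. The 28 min kidneys lay below those of both neighbouring times, with -0.67 ± 0.13 against 26 min (adjusted p = 0.00159). The return from 28 to 30 min (0.41 ± 0.13, adjusted p = 0.0468) did not pass in 6 of the other settings of the fit. Ulk1, the gene of the kinase that starts autophagy, was lower at 28 min (-0.46 ± 0.09, adjusted p = 0.000272) and at 30 min (-0.33 ± 0.09, adjusted p = 0.00425). Becn1 passed at no time, with a 95% interval of -0.02 to 0.35 at 30 min.

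Differences were called between sham and the shorter times and again between 26 and 28 min. Against sham, the mean of the 6 times from 16 to 26 min had 17 of the 40 past the threshold, 4 higher and 13 lower, against 38.2% of all genes tested (17.6% higher and 20.6% lower). Gabarapl1 was the 1 DEG, against 2.96% of all genes tested. The split was 5 higher and 10 lower without quantile normalization and 6 and 10 with FPKM rescaled to a constant sum. Between 16 and 26 min limma called 0 of the 40, with 10 at an unadjusted p under 0.05, and 0% of all genes tested. From 26 to 28 min 11 of the 40 passed, 4 higher and 7 lower, against 19.3% of all genes tested (10.8% higher and 8.52% lower). These were Ctsz, Gla, Sqstm1 and Atg7 higher and Ctsh, Glb1, Man2b1, Psap, Gabarapl1, Ulk1 and Wipi1 lower. None of the 40 was a DEG in that step in limma, against 1.5% of all genes tested, and 18 of the 40 had an unadjusted p under 0.05.

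From 28 to 30 min 7 of the 40 passed, against 13.2% of all genes tested (6.47% higher and 6.77% lower), with Gla, Scarb2 and Wipi1 higher and Manba, Neu1, Lipa and Cd63 lower. There was 0 DEG among them, against 1.05% of all genes tested. This count moved with single kidneys. It was 3 and 2 without replicate 2 or 3 of the 28 min group, and 11, 4 and 2 without replicate 1, 2 or 3 of the 30 min group. In a fit of only these 6 kidneys it was 0, where limma also called 0 genes among all those tested, with 14 of the 40 at an unadjusted p under 0.05 in the fit of all kidneys. Without quantile normalization the split was 2 higher and 5 lower.

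For the mean of 28 and 30 min against the mean of 16 to 26 min, 26 of the 40 passed, 11 higher and 15 lower, against 52.1% of all genes tested (29.6% higher and 22.5% lower). Limma called 0 DEGs among the 40, with 27 at an unadjusted p under 0.05, against 3.67% of all genes tested. This comparison uses the same 18 kidneys as that of 16 to 26 min with sham. Set side by side, the first difference (16 to 26 min against sham) and the second (28 and 30 min against 16 to 26 min) were -1.41 and -0.48 for Gabarapl1, -0.74 and -0.16 for Lamp2, and 0.61 and 0.74 for Ctsd, all of which passed. For Sqstm1 they were -0.27 and 0.75, both past the threshold in opposite directions, but the first of these was lost without quantile normalization, as were the first differences of Glb1 and Lamp1. Whether the first and the second change of a gene differ was not tested.

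**Figure D3:**
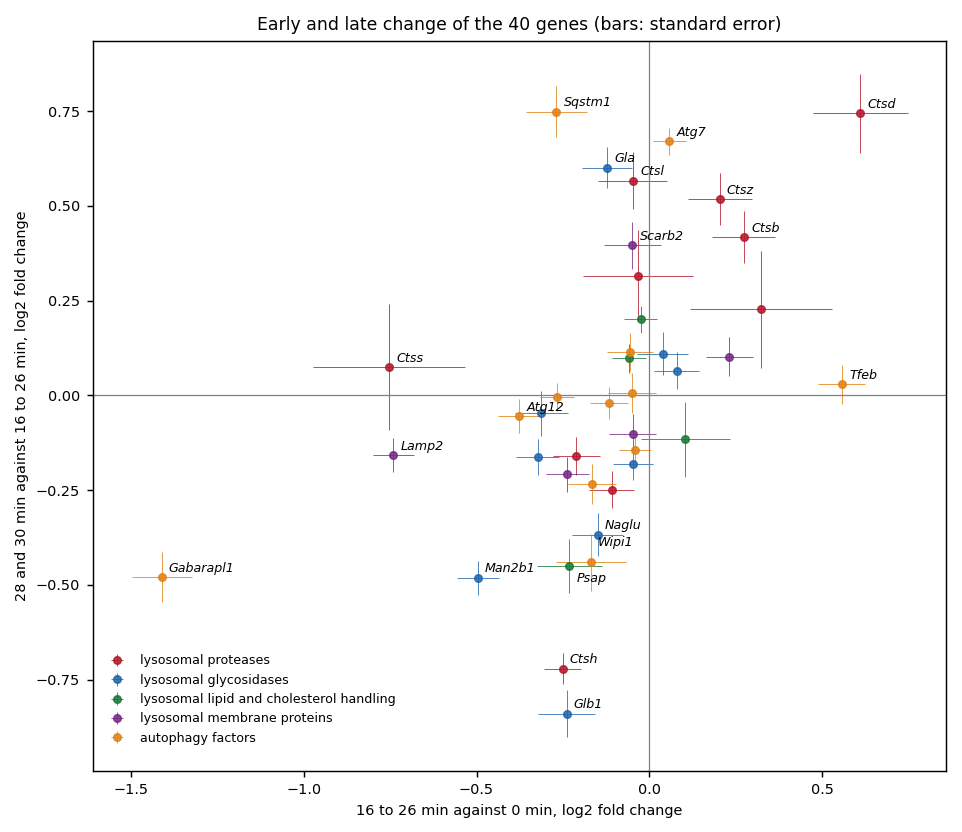
Log2 fold change of the 40 genes for 16 to 26 min against 0 min (x) and for 28 and 30 min against 16 to 26 min (y), with bars for the standard error and colours for the classes. Both axes use the 18 kidneys of 16 to 26 min, so an error in their mean moves a point along both. Gabarapl1 lies far left at -1.41, Ctsd at upper right, and Sqstm1 at upper left.

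Lysosomal genes and autophagy factors were set side by side. At 30 min against sham 20 of the 28 lysosomal genes passed (8 higher, 12 lower) and 9 of the 12 autophagy factors (3 higher, 6 lower). Of all genes tested 52.3% passed in that comparison, 26.9% higher and 25.4% lower. The median log2 fold change was -0.23 for the lysosomal genes and -0.18 for the autophagy factors. For 16 to 26 min against sham 12 of 28 and 5 of 12 passed, against 38.2% of all genes tested. From 26 to 28 min 6 of 28 and 5 of 12 passed, against 19.3% of all genes tested. Within the lysosomal genes the median at 30 min was 0.30 for proteases, -0.53 for glycosidases, -0.15 for lipid and cholesterol handling and -0.11 for membrane proteins. The difference between the classes was not tested.

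The FPKM of each class were also summed in each kidney, so the most abundant genes weigh most in a sum. The 10 proteases summed to 2128 ± 263 FPKM in sham, 2857 ± 282 at 26 min, 3544 ± 151 at 28 min and 3390 ± 402 at 30 min. The 9 glycosidases summed to 381 ± 11.1 FPKM in sham, 329.9 ± 10.4 at 26 min, 306 ± 14.0 at 28 min and 256 ± 28.5 at 30 min. The 12 autophagy factors summed to 1412 ± 49.6 FPKM in sham and to 1128 ± 70.1 at 26 min, 1254 ± 95.8 at 28 min and 1235 ± 62.4 at 30 min. Within this sum Gabarapl1 went from 408 ± 41.6 FPKM in sham to 113.5 ± 7.93 at 28 min and 120 ± 11.7 at 30 min. At 28 and 30 min that fall was larger than the fall of the sum. Sqstm1 went the other way, from 304 ± 26.5 FPKM in sham to 456 ± 79.9 at 28 min and 435 ± 50.3 at 30 min. The 4 genes for lipid and cholesterol handling summed to 1147 ± 72.2 FPKM in sham, 853 ± 80.1 at 28 min and 806 ± 63.4 at 30 min, without overlap between sham and either time. Psap made up most of that sum, with 1011 ± 63.1 FPKM in sham, 688 ± 75.7 at 28 min and 688 ± 61.9 at 30 min. Npc1 was higher at 30 min, and Npc2 and Lipa passed at none of the 8 times. The 5 membrane proteins summed to 2083 ± 127 FPKM in sham and 1904 ± 217 at 30 min, groups that overlapped. Over all 40 genes the share of a kidney's FPKM was 1.33% in sham, 1.497% at 28 min and 1.41% at 30 min.

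**Figure D4:**
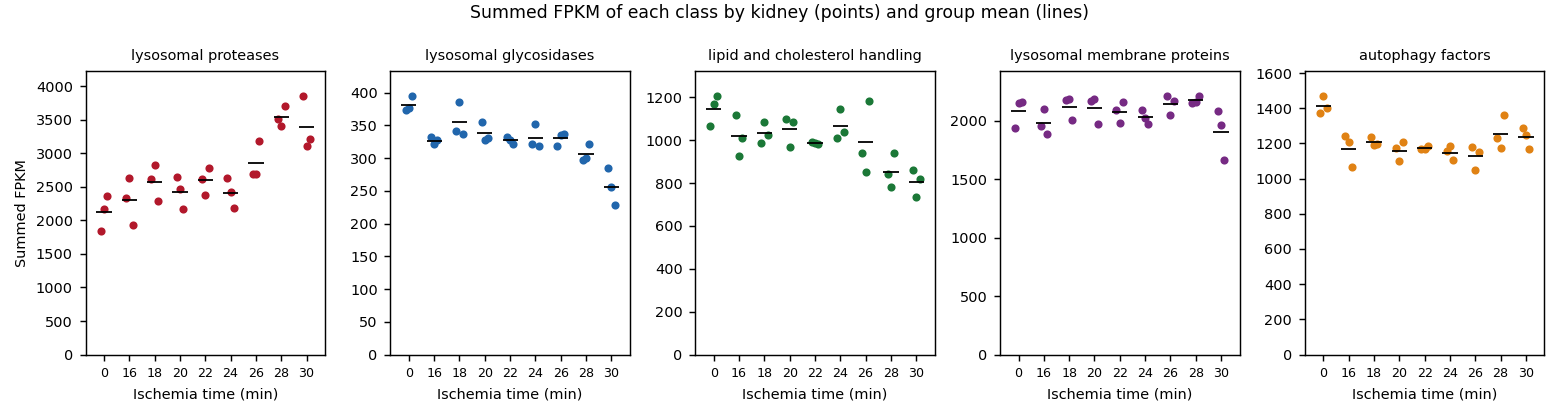
Summed FPKM of each of the 5 classes (linear axes from 0) in each of the 27 kidneys by ischemia time in min, with points for kidneys and lines for the mean of 3. All 6 protease sums at 28 and 30 min lie above the 3 sham sums, and all 6 glycosidase sums lie below them.

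Further genes of the pathway were taken from lists set by function. At 30 min against sham 52.3% of all genes tested passed, 26.9% higher and 25.4% lower, which is the share to set beside the counts of these lists. Of 19 subunits and helpers of the V-ATPase, the proton pump that acidifies the lysosome, 6 were higher and 3 lower at 30 min against sham, with a median log2 fold change of 0.06. Atp6v0a1, a membrane subunit of the pump, was the only DEG among them, at 17.5 FPKM in sham and 44.5 ± 2.35 FPKM at 30 min (1.25 ± 0.07, adjusted p = 3.62e-11). Of 43 other lysosomal hydrolases, membrane proteins and sorting factors tested, 7 were higher and 24 lower, with a median of -0.27. The sulfatase genes Arsg and Arsb were lower by a signed -1.88 ± 0.15 and -1.48 ± 0.14 (adjusted p = 3.34e-09 and 2.17e-08).

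Cd68, a lysosomal glycoprotein of macrophages that is also among the macrophage markers, rose from 3.38 ± 0.299 FPKM to 28.2 ± 2.596 FPKM at 30 min (2.63 ± 0.26, adjusted p = 6.99e-08), and was already at 22.5 FPKM over 16 to 26 min. Of the 12 macrophage and monocyte markers 3 were higher and 4 lower at 30 min. Csf1r, a defining one, went from 15.8 FPKM to 6.69 FPKM and was among the lower ones. Of 41 other autophagy genes 6 were higher and 24 lower at 30 min (26.9% and 25.4% of all genes tested), with a median of -0.30. Pik3c3, the gene of the lipid kinase VPS34 that works with Beclin 1, rose from 52.4 ± 1.17 FPKM to 157 ± 22.1 FPKM (1.61 ± 0.12, adjusted p = 1.65e-09). The mitophagy genes Pink1 and Bnip3 fell from 149 ± 4.82 to 54.7 ± 7.004 FPKM and from 100.2 ± 11.03 to 44.3 ± 2.16 FPKM (adjusted p = 2.25e-09 and 7.03e-09).

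Markers of kidney cell types moved with the same times. The 10 proximal tubule markers summed to 3582 to 5947 FPKM at 16 min, 2787 to 5316 FPKM at 26 min, 1555 to 1813 FPKM at 28 min and 969 to 1145 FPKM at 30 min, and 9 of the 10 were lower at 30 min against sham. The 5 tubular injury genes summed to 15.8 to 90.1 FPKM in sham, 70.7 to 1218 FPKM over 16 to 26 min, 2144 to 2264 FPKM at 28 min and 2518 to 4918 FPKM at 30 min. Over 16 to 26 min 4 of these 5 were higher than in sham, as were 17.6% of all genes tested. Of the 8 markers of the loop of Henle, distal tubule and collecting duct, 7 were lower at 28 min and 6 at 30 min. Against sham, 23.6% of all genes tested were lower at 28 min and 25.4% at 30 min. At 30 min 2 of the 4 podocyte markers and 3 of the 5 endothelial markers were higher, as were 26.9% of all genes tested. The 7 neutrophil markers summed to 5.49 to 11.9 FPKM in sham and 22.7 to 30.5 FPKM at 30 min, with Mpo at 0 in the 30 min kidneys. The part of these shifts in the values of the lysosome and autophagy genes was not tested.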

How the data were processed

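RNA was sequenced on the DNBSEQ-G400 platform from 27 left kidneys, 3 different mice at each of 9 ischemia times, and samples were grouped by the time in their labels. The values deposited by the authors are FPKM per gene symbol, linear and rounded to 2 decimals, with no quantile normalization in them; the study's methods call them RPKM. The submitters' processing notes name Bowtie2, RSEM, DESeq2 and GRCm38.p6 without versions or order. No counts of reads were given, which leaves the depth unknown and lets precision rest on the 3 replicates. Columns of no sample were 0.

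After adding a pseudocount of 1 FPKM, log2 values were quantile normalized between kidneys. The 18188 genes above 0 in at least 3 kidneys were fitted with limma 3.58.1 (R 4.3.3), 1 mean per time and 1 error estimate over all kidneys, with Benjamini-Hochberg adjustment over all genes. After the study's methods, DEGs passed an adjusted p of 0.05 and moved by over 1 on the log2 scale. The procedure was tested on simulated data. SE and 95% intervals are limma's. Fit, pseudocount, scaling, filter, block and left-out kidneys were varied. Members and lists were chosen with earlier results of these data known. Values in every kidney were given, in each class, for the 2 largest changes at 30 min against sham and at 28 against 26 min (1 each in classes under 6 genes), and for Tfeb, Sqstm1, Map1lc3a, Map1lc3b and Lamp1; Ctsc, Ctss, Gla, Lipa, Scarb2 and Cd63 were added after their values were seen. Of the 45 other lysosomal genes, 43 were tested. Promoters are from RefSeq.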

Additional observations from a re-analysis of the deposited data

How the results depend on the processing

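Of the counts of genes called among the 40, the one for 28 to 30 min depended on the processing. It was 7 in the fit of all kidneys and 0 when only the kidneys of these 2 times were fitted, where no gene of all those tested was called, and the cause was not tested. With each kidney left out in turn it ranged from 2 to 11. The other counts stayed within 1.5 times the main count in every alternative run. With kidneys left out they were 12 to 19 for 16 to 26 min against sham (12 without replicate 2 of sham), 24 to 26 for 28 min against sham, 27 to 32 for 30 min against sham, 9 to 13 for 28 against 26 min, and 24 to 27 for 28 and 30 min against 16 to 26 min. DEGs numbered 1 in every case for 16 to 26 min, 2 to 3 at 28 min, 4 to 5 at 30 min and 0 otherwise. No called member changed sign in any alternative. No pairing of the mice by replicate number was seen. Of 27 kidneys, 10 correlated best with their own number. The mean correlation was 0.0087 within a number and -0.0046 between different numbers. This check cannot exclude a pairing too weak to show in these correlations. With the replicate number as a block, 18, 26, 28, 11, 5 and 26 genes were called for 16 to 26, 28 and 30 min against sham, 28 against 26 min, 30 against 28 min, and 28 and 30 min against 16 to 26 min. Without quantile normalization the median of all genes moved by at most 0.05 (log2) and that of the 40 for 16 to 26 min against sham from -0.08 to 0.0090, and the early calls of Glb1, Lamp1 and Sqstm1 and the calls of Gabarap were lost.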
